A study of Rattus norvegicus with 16 samples.

Results

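The genes described here are 10 amino acid transporters and transporter subunits of the proximal tubule, Slc3a1, Slc7a9, Slc6a19, Slc6a18, Slc6a20, Slc1a1, Slc36a2, Slc3a2, Slc7a7 and Slc7a8. They were taken by symbol from the deposited gene table, where all 10 had a row among 35849 genes. mRNA was measured by RNA sequencing in the renal tissue of 16 male Sprague Dawley rats, which entered the study at 6 to 8 weeks of age. The normal group (n = 4) received citrate buffer and a normal diet. The DN (diabetic nephropathy) group (n = 4) received streptozotocin (STZ), a toxin of the insulin-producing beta cells, at 45 mg/kg with a high-glucose and high-fat diet, and rats whose blood glucose passed 16.7 mmol/L were kept. The SIN (20 mg/kg) group (n = 4) received the same STZ and diet and then sinomenine, a plant alkaloid, at that dose every day for 8 weeks, and the SIN (40 mg/kg) group (n = 4) received the higher dose. STZ and diet therefore went together in every diabetic group, so their effects cannot be told apart.

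The proximal tubule takes back nearly all filtered amino acids. Sodium-driven, proton-driven or exchanging carriers in the brush border bring them into the cell, and other carriers in the basolateral membrane pass them on to the blood. Several of these carriers are pairs of a heavy chain, which brings the complex to the membrane, and a light chain, which transports. Inherited defects of single members cause known aminoacidurias: cystinuria for SLC3A1 and SLC7A9, Hartnup disease for SLC6A19 and lysinuric protein intolerance for SLC7A7.

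The total per rat lay between 19616312 and 25217030 estimated counts. Levels are given as CPM, estimated counts scaled to a common library size by TMM over the 16 rats. Where genes are compared with each other, and where stated between groups, TPM is given. TPM divides the counts by transcript length and scales every rat to the same total without TMM. CPM and TPM of a gene can therefore order the rats differently. Serial numbers of the libraries follow on from each other inside a group, and any batch that goes with them cannot be told apart from the condition. The labelled tissue was checked against 10 proximal tubule markers, among them Lrp2, Cubn and Slc34a1. Their summed level was 14230 to 20435 CPM in normal rats, 14023 to 20298 CPM in DN rats, 13670 to 17969 CPM in SIN (20 mg/kg) rats and 13629 to 20278 CPM in SIN (40 mg/kg) rats, and edgeR's quasi-likelihood test called 0 of these 10 markers in each of the 6 comparisons between groups, where it called 0% to 19.5% of all genes tested. At an unadjusted p under 0.05 there were 0 to 4 of the 10, most between SIN (20 mg/kg) and normal, where 20.8% of all genes passed, and the lactate transporter Slc5a12 had a DN over normal log2 fold change of -1.07 (adjusted p = 0.0864 in edgeR). In bulk tissue, fewer cells of a type and less RNA per cell cannot be told apart.

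Slc3a1 had by far the highest level per length of the 10 genes. In the normal group its mean was 2120.4 TPM (range 1909 to 2327 TPM), and no other member overlapped this range. Slc6a18 followed at a mean of 311 TPM, then Slc3a2 at 272 TPM, Slc7a7 at 216 TPM and Slc7a9 at 170.4 TPM, and each of these 4 genes overlapped in range with its neighbour in this order. A gap separated Slc7a9 from Slc1a1 at 104 TPM, Slc6a19 at 94.0 TPM, Slc6a20 at 93.2 TPM and Slc7a8 at 79.0 TPM, whose neighbouring ranges again overlapped. Slc36a2 was nearly undetected, at a mean of 0.0234 TPM. In all 4 groups, Slc3a1, Slc6a18 and Slc3a2 held the first 3 places and Slc7a8 and Slc36a2 the last 2. Slc6a19 stood above Slc6a20 and Slc1a1 in the SIN (40 mg/kg) group, at a mean of 154 TPM, with a range that overlapped that of Slc6a20.

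**Figure D1:**
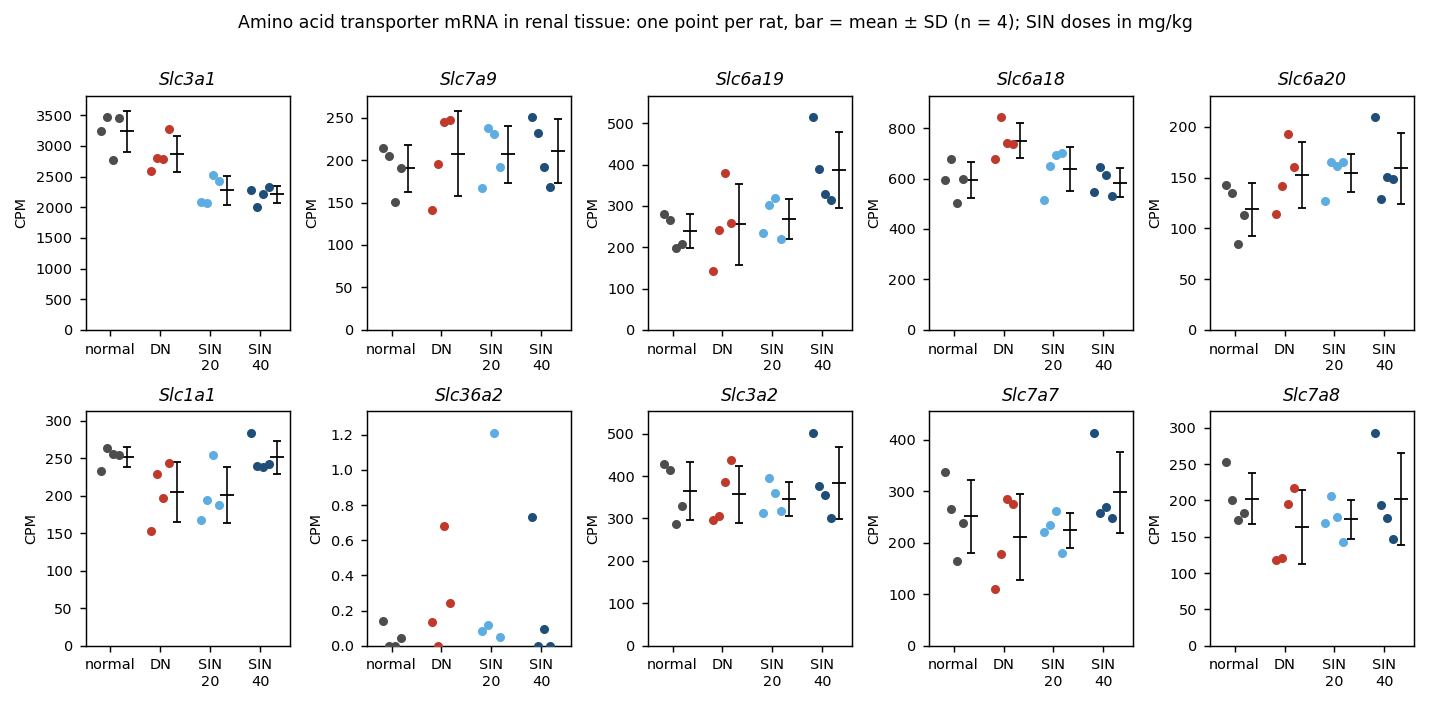
CPM (vertical axes, linear) of the 10 genes in each rat by group, with 1 point per rat and bars for the mean ± SD of 4 rats, except for Slc36a2, whose points stand alone. Slc3a1 falls from a mean of 3235 CPM in the normal group to 2208 CPM in the SIN (40 mg/kg) group, while most other genes overlap between groups.

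Each comparison set 4 rats against 4 rats in a two-sided quasi-likelihood test of edgeR, and a gene was called at a Benjamini-Hochberg adjusted p under 0.05 over all genes tested. Of the 10 genes, 9 passed the filter on low counts in every comparison and Slc36a2 passed in none. Between the DN and normal groups, 0 of the 9 genes were called, while 19.5% of all genes tested were. An unadjusted p under 0.05 was reached by 1 of them, Slc6a18, against 36.9% of all genes, and the same gene was the only one whose groups did not overlap in CPM, against 24.3% of all genes. DESeq2 called 1 of the 9, again Slc6a18, with 26.4% of all genes in its fit, and edgeR's exact test called 0 with 21.5% of all genes.

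When SIN (20 mg/kg) was compared with DN, edgeR's quasi-likelihood test called 0 of the 9 genes, as it did 0% of all genes. At an unadjusted p under 0.05 there was 1 gene, Slc3a1, lower in the SIN (20 mg/kg) group, against 15.4% of all genes, and it was also the 1 gene without overlap between the groups, against 8.86% of all genes. DESeq2 and edgeR's exact test also called 0 of the 9, where they called 1.4% and 0.566% of all genes. When SIN (40 mg/kg) was compared with DN, the quasi-likelihood test again called 0 of the 9 and 0% of all genes. Here 3 of the 9 had an unadjusted p under 0.05, against 17.1% of all genes, with Slc6a19 higher and Slc3a1 and Slc6a18 lower in the SIN (40 mg/kg) group. Slc3a1 and Slc6a18 were also the 2 genes without overlap, against 10.7% of all genes. DESeq2 called these 2 genes, with 2.73% of all genes, and edgeR's exact test called 0 of the 9, with 1.04% of all genes. The DN rats are the same in both comparisons.

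When the higher SIN dose was compared with the lower, the quasi-likelihood test called 0 of the 9 genes and 0.00639% of all genes, and DESeq2 and edgeR's exact test called 0 of the 9 with 0.109% and 0.0383% of all genes. Slc6a19, Slc1a1 and Slc7a7 were higher at 40 mg/kg at an unadjusted p under 0.05, 3 of 9 genes against 4.98% of all genes, but each of the 3 overlapped between the doses, and 0 of the 9 genes had no overlap against 3.3% of all genes. Against the normal group, 1 of the 9 genes was called in the SIN (20 mg/kg) group, with 6.36% of all genes, and 2 of the 9 in the SIN (40 mg/kg) group, with 5.97% of all genes. These were Slc3a1, lower at both doses, and Slc6a19, higher at 40 mg/kg. Unadjusted p-values under 0.05 were reached by 3 of the 9 genes at each dose, against 20.8% of all genes at 20 mg/kg and 22.9% at 40 mg/kg. Groups did not overlap for 1 of the 9 at 20 mg/kg and for 2 at 40 mg/kg, against 13.6% and 13.9% of all genes. The median log2 fold change over the 9 genes stayed between -0.08 and 0.15 in the 6 comparisons, and that over all genes tested between -0.01 and 0.01.

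**Figure D2:**
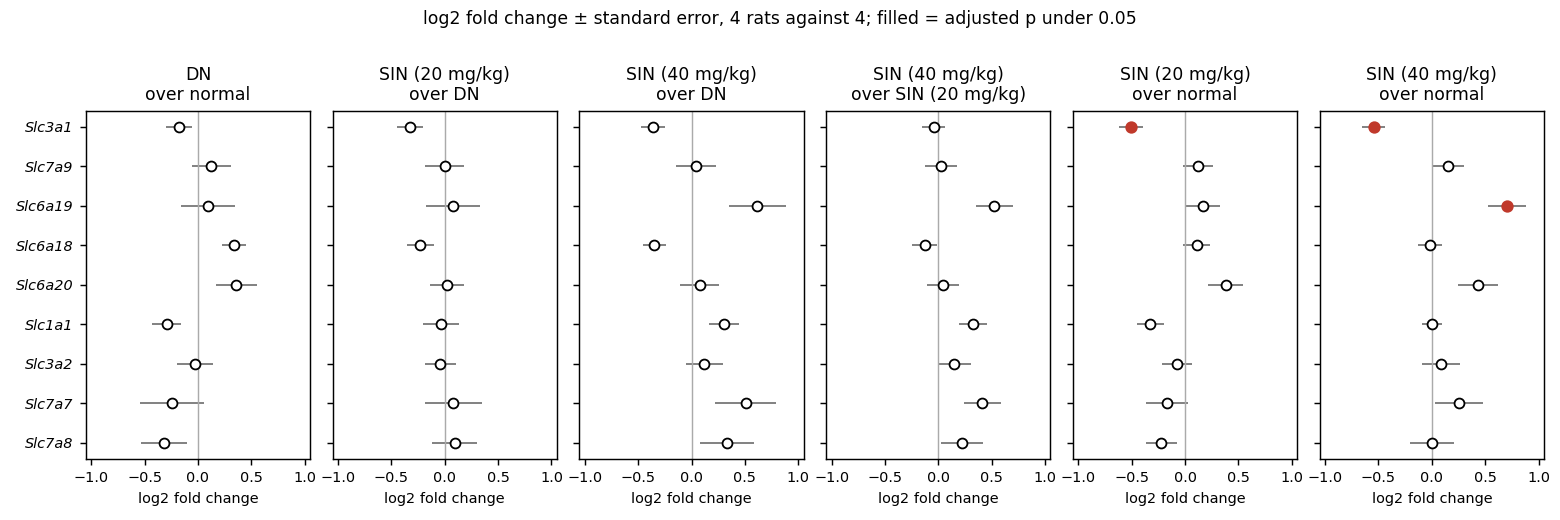
Fitted log2 fold change (horizontal axes) with its standard error for 9 genes in the 6 comparisons, 4 rats against 4 in each. Filled points have an adjusted p under 0.05: Slc3a1 at -0.51 and -0.54 for the SIN groups over the normal group, and Slc6a19 at 0.70 for SIN (40 mg/kg) over normal.

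Slc3a1 encodes rBAT, the heavy chain of the brush border carrier that takes up cystine, lysine, arginine and ornithine in exchange for neutral amino acids, and Slc7a9 encodes its light chain b0,+AT. The 250 bases before their transcription starts are shown because the mRNA of Slc3a1 was called in the SIN groups over the normal group and that of its partner Slc7a9 was not, a difference between the genes that was not itself tested. They come from RefSeq on the rat assembly GRCr8, which is not the assembly of the authors' alignment (Rnor_6.0), and 8 of the 10 genes had such a sequence, with none for Slc6a20 and Slc1a1. Capitals mark a match to a site of the tubular transcription factor HNF4 (CAAAGTCCA, found in 0.3376% of 33469 promoter windows on either strand).

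Slc3a1, GRCr8 chr6:15394750-15394999, minus strand: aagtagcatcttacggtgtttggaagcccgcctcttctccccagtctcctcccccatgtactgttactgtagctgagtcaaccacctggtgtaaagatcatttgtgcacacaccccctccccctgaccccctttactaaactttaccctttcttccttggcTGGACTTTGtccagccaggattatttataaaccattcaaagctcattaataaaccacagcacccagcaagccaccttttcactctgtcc
Slc7a9, GRCr8 chr1:97246632-97246881, plus strand: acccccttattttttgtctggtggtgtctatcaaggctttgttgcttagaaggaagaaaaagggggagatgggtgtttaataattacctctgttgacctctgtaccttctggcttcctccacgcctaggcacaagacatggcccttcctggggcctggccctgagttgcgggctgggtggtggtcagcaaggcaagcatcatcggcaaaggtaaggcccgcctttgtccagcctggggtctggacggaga

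The HNF4 letters of Slc3a1 lie 89 to 81 bases before the start, on the opposite strand. No other window of the members held these letters, the one of Slc7a9 included, and the amino acid response site of ATF4 (TGATGNAA, in 3.4031% of windows) was in 0 of the 9 windows of the 8 genes. A match is a description of the letters, not evidence of binding. The RefSeq start shown lies 1946 bases inside the outer start of the Slc3a1 gene and 629 bases inside that of Slc7a9.

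Slc3a1 (ENSRNOG00000007006) was lower in both SIN groups than in the normal group. Its level was 3248, 3472, 2765 and 3455 CPM in the 4 normal rats and 2588, 2796, 2783 and 3278 CPM in the 4 DN rats. It was 2082, 2061, 2532 and 2425 CPM in the SIN (20 mg/kg) rats and 2276, 2006, 2219 and 2331 CPM in the SIN (40 mg/kg) rats. Every SIN rat thus lay below every DN rat and every normal rat, whereas DN and normal rats overlapped. The group means were 3235 ± 329, 2861 ± 294, 2275 ± 239 and 2208 ± 142 CPM (SD, n = 4 each).

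Against the normal group, the log2 fold change of Slc3a1 was -0.51 (SE 0.11) at 20 mg/kg with an adjusted p of 0.0290, and -0.54 (SE 0.11) at 40 mg/kg with an adjusted p of 0.0183, both in edgeR's test. DESeq2 also called Slc3a1 at both doses, with adjusted p-values of 0.000306 at 20 mg/kg and 9.1e-06 at 40 mg/kg. The same calls were made by edgeR's exact test. In CPM means, the normal group was 1.42 times the SIN (20 mg/kg) group and 1.47 times the SIN (40 mg/kg) group. The call at 20 mg/kg was lost without normal rat 1, 2 or 4 or SIN (20 mg/kg) rat 1, 2 or 4 (adjusted p = 0.0503 to 0.101 by edgeR), while the log2 fold change stayed between -0.58 and -0.46 when any rat was left out. The call at 40 mg/kg was lost without normal rat 4 or SIN (40 mg/kg) rat 2 or 3 (adjusted p = 0.0606 to 0.0660 by edgeR), with a log2 fold change between -0.61 and -0.50 when any rat was left out. Against the DN group, the log2 fold changes were -0.33 (SE 0.12, adjusted p = 0.289) at 20 mg/kg and -0.36 (SE 0.11, adjusted p = 0.204) at 40 mg/kg in edgeR, so neither passed the threshold. DESeq2 gave an adjusted p of 0.0219 for the comparison at 40 mg/kg, and over all alternatives tried it ranged from 0.0219 to 0.404. The DN over normal log2 fold change was -0.18 (SE 0.12, adjusted p = 0.314 by edgeR). In TPM, which is scaled without TMM, DN rats at 1656 to 1820 lay below normal rats at 1909 to 2327.

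Slc7a9 (ENSRNOG00000012344) did not follow Slc3a1. Its level was 214, 205, 151 and 191 CPM in the normal rats, 142, 195, 245 and 247 CPM in the DN rats, 167, 238, 230.3 and 191 CPM in the SIN (20 mg/kg) rats and 251, 232, 192 and 168 CPM in the SIN (40 mg/kg) rats. All groups overlapped, and the lowest value of all, 142 CPM, was DN rat 1. The log2 fold changes over normal were 0.12 (SE 0.18), 0.12 (SE 0.14) and 0.16 (SE 0.15) for DN, the lower and the higher SIN dose, and over DN they were -0.0019 (SE 0.19) and 0.04 (SE 0.19) at the lower and the higher dose, with adjusted p-values of 0.576 to 0.996 in edgeR's test. Estimated counts per gene can be fractions where reads also match another gene. Those of both Slc3a1 and Slc7a9 are fractions in all 16 rats, unlike those of 6 other members. On GRCr8 the Slc3a1 gene overlaps Prepl, which stood at 22.4 to 30.6 CPM and whose log2 fold changes over normal were 0.12 and 0.23 in the SIN groups, and the library kit does not mark strand.

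Slc3a1 has another light chain, encoded by Slc7a13 (AGT1), which carries aspartate, glutamate and cystine in the last segment of the proximal tubule. Slc7a13 is from the list of other transporters below and showed the largest change of that list over the normal group. Its level was 1865, 2107, 2112 and 2193 CPM in the normal rats, 716, 839, 600.2 and 758 CPM in the DN rats, 513, 435, 786 and 811 CPM in the SIN (20 mg/kg) rats and 515, 626, 926 and 971 CPM in the SIN (40 mg/kg) rats. Every diabetic rat lay below every normal rat. The log2 fold change over normal was -1.51 (SE 0.13, adjusted p = 0.00113) in the DN group, -1.70 (SE 0.20, adjusted p = 0.00145) at 20 mg/kg and -1.44 (SE 0.19, adjusted p = 0.00276) at 40 mg/kg in edgeR's test. Slc7a13 overlapped between the DN and SIN groups, where Slc3a1 did not.

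The ratio of heavy to light chain mRNA is given as a description, with no test. In TPM, Slc3a1 stood 12.5 ± 1.06 (SD, n = 4) times above Slc7a9 in the normal group, 10.4 ± 2.12 times in DN rats, 8.16 ± 1.35 times in SIN (20 mg/kg) rats and 7.86 ± 1.77 times in SIN (40 mg/kg) rats. The normal rats, at ratios of 11.1 to 13.4, lay above all 8 SIN rats, at 6.30 to 10.1, and overlapped the DN rats at 8.29 to 13.3. The ratio of Slc3a1 to Slc7a13 moved the other way, from 1.37 ± 0.162 in the normal group to 3.47 ± 0.528 in DN rats, 3.27 ± 0.701 in SIN (20 mg/kg) rats and 2.71 ± 0.834 in SIN (40 mg/kg) rats, again in TPM. Normal rats reached at most 1.52 and diabetic rats at least 2.09. Added together in the normal group, the TPM levels of the light chains did not exceed that of the heavy chain in any of the 4 rats.

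**Figure D3:**
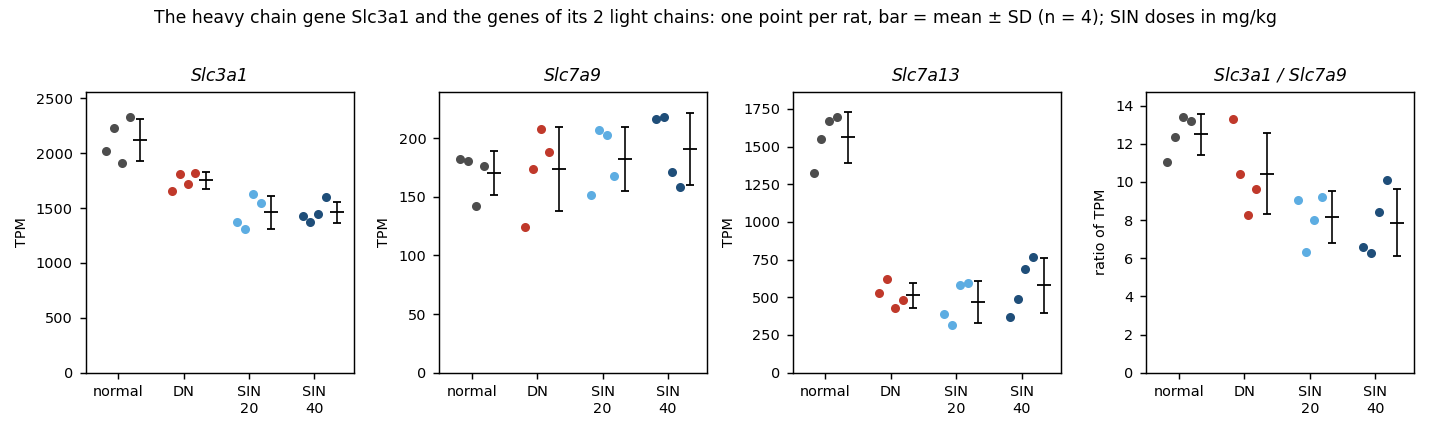
TPM (vertical axes, linear) of Slc3a1 and of the genes of its light chains Slc7a9 and Slc7a13, and the ratio of Slc3a1 to Slc7a9, with 1 point per rat and the mean ± SD of 4 rats. Slc7a13 drops in all diabetic groups from a mean of 1561 TPM to between 469 and 579 TPM, Slc7a9 stays between 124 and 218 TPM, and the mean ratio goes from 12.5 in the normal group to 7.86 in the SIN (40 mg/kg) group.

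Slc6a19 (B0AT1) is the main sodium-driven carrier of neutral amino acids in the brush border, and Slc6a18 (XT2) is a related carrier of glycine and other neutral amino acids. The 2 genes are neighbours on the rat chromosome and gave different results, which is why their upstream sequences are set side by side. Neither window held the HNF4 or the ATF4 letters.

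Slc6a19, GRCr8 chr1:31414494-31414743, plus strand: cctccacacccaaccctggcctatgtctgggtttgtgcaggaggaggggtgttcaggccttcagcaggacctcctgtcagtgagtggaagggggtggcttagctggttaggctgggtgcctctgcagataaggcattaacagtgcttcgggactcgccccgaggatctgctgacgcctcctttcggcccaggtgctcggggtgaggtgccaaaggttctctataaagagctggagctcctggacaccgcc
Slc6a18, GRCr8 chr1:31436403-31436652, plus strand: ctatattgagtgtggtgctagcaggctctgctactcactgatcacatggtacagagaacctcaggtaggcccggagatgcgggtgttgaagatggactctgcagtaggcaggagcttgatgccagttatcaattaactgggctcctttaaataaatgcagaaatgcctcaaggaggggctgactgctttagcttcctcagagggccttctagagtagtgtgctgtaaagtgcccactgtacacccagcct

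Slc6a19 (ENSRNOG00000026501) was at 282, 267, 199 and 209 CPM in the normal rats and at 142, 242, 380.3 and 258 CPM in the DN rats. In the SIN (20 mg/kg) rats it was at 235, 302, 318 and 221 CPM, and in the SIN (40 mg/kg) rats at 515, 390.1, 329 and 315 CPM. All SIN (40 mg/kg) rats lay above all normal rats but overlapped the DN and SIN (20 mg/kg) groups, and DN rats differed most among themselves, by 2.68 times between the highest and the lowest. The SIN (40 mg/kg) over normal log2 fold change was 0.70 (SE 0.18) with an adjusted p of 0.0457 in edgeR's test, a mean of 387 ± 91.5 CPM against 239 ± 41.3 CPM (SD, n = 4). DESeq2 also called Slc6a19 in this comparison (adjusted p = 0.00229), as did edgeR's exact test. Leaving out any rat other than SIN (40 mg/kg) rat 4 ended the quasi-likelihood call, with adjusted p-values of 0.0571 to 0.129 in edgeR. So did fitting all 16 rats together (0.0994 in edgeR), while the log2 fold change stayed between 0.53 and 0.80 in all alternatives tried. Without SIN (40 mg/kg) rat 1, whose 515 CPM was the highest, it was 0.53 with an adjusted p of 0.0688 in edgeR. Over the DN group the log2 fold change was 0.62 (SE 0.27, adjusted p = 0.282), and over the SIN (20 mg/kg) group 0.53 (SE 0.18, adjusted p = 0.961), both short of the threshold in edgeR's test.

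Slc6a18 (ENSRNOG00000016253) had its highest levels in the DN group. It was at 592, 677, 504 and 598 CPM in the normal rats, 679, 844, 739.9 and 737 CPM in the DN rats, 514, 649, 693 and 700.2 CPM in the SIN (20 mg/kg) rats and 545, 647, 614 and 529 CPM in the SIN (40 mg/kg) rats. The DN rats lay above all normal rats and all SIN (40 mg/kg) rats, by a narrow margin at 679 against 677 CPM in the normal group, and overlapped the SIN (20 mg/kg) rats. In TPM, which is scaled without TMM, these separations were absent. There DN rat 4, at 328 TPM, lay below normal rat 2 at 349 TPM and SIN (40 mg/kg) rat 2 at 355 TPM. The DN over normal log2 fold change was 0.34 (SE 0.11, adjusted p = 0.0636 in edgeR), past the threshold with DESeq2 (adjusted p = 0.0185) and without normal rat 2 (adjusted p = 0.0422 in edgeR). The SIN (40 mg/kg) over DN log2 fold change was -0.35 (SE 0.11, adjusted p = 0.201 in edgeR), past the threshold with DESeq2 alone (adjusted p = 0.0376). Between SIN (40 mg/kg) and normal it was -0.02 (SE 0.11, adjusted p = 0.952 in edgeR). In TPM the ratio of Slc6a18 to Slc6a19 was 3.34 ± 0.416 in the normal group, 4.36 ± 1.59 in DN rats, 3.22 ± 0.668 in SIN (20 mg/kg) rats and 2.08 ± 0.468 in SIN (40 mg/kg) rats (SD, n = 4), and the SIN (40 mg/kg) rats, at most at 2.48, lay below every rat of the other groups.

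Slc6a20 (ENSRNOG00000006010) encodes the sodium-driven carrier of proline and other imino acids. RefSeq names the gene Slc6a20a and places a near copy, Slc6a20b, beside it on GRCr8, so its level is uncertain where reads match both, although its estimated counts are whole in all 16 rats. It was at 142, 135, 84.6 and 113 CPM in the normal rats, 115, 142, 193 and 161 CPM in the DN rats, 127, 166, 161 and 165 CPM in the SIN (20 mg/kg) rats and 209.7, 129, 150.3 and 149 CPM in the SIN (40 mg/kg) rats. The normal rats held the lowest values but overlapped each other group. The log2 fold changes over normal were 0.36 (SE 0.19, adjusted p = 0.193), 0.38 (SE 0.16, adjusted p = 0.213) and 0.43 (SE 0.19, adjusted p = 0.202) for DN, the lower and the higher SIN dose, none past the threshold in edgeR's test or in any alternative.

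Slc1a1 (EAAT3, ENSRNOG00000014816), the carrier of glutamate and aspartate, was at 233, 263, 256 and 254 CPM in the normal rats and 153, 228, 197 and 243 CPM in the DN rats. It was at 167, 195, 254 and 188 CPM in the SIN (20 mg/kg) rats and 284, 239, 239 and 242 CPM in the SIN (40 mg/kg) rats. Normal and SIN (40 mg/kg) rats lay in a narrow band, and 6 of the 8 rats of the DN and SIN (20 mg/kg) groups lay below the lowest normal rat. The log2 fold change over normal was -0.29 (SE 0.14, adjusted p = 0.154) in the DN group, -0.32 (SE 0.13, adjusted p = 0.172) at 20 mg/kg and 0.0025 (SE 0.09, adjusted p = 0.991) at 40 mg/kg in edgeR's test. Without SIN (20 mg/kg) rat 3, the highest of its group at 254 CPM, the middle value became -0.46 with an adjusted p of 0.0447 in edgeR. SIN (40 mg/kg) over DN it was 0.30 (SE 0.14, adjusted p = 0.305 in edgeR). On GRCr8 the gene overlaps Spata6l, and 14 of its 16 estimated counts are whole.

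The basolateral members are the heavy chain Slc3a2 (CD98), which many cell types carry, and its light chains Slc7a7 (y+LAT1), which passes dibasic amino acids to the blood, and Slc7a8 (LAT2), which exchanges neutral ones. None of the 3 was called in any comparison. Slc3a2 (ENSRNOG00000018487) was at 286 to 428 CPM in the normal rats, 297 to 439 CPM in the DN rats, 313 to 396 CPM in the SIN (20 mg/kg) rats and 302 to 502 CPM in the SIN (40 mg/kg) rats, and its log2 fold changes in the 6 comparisons stayed between -0.08 and 0.15. Slc7a7 (ENSRNOG00000010296) was at 337, 265, 165 and 239 CPM in the normal rats, 109.5, 178, 285 and 274 CPM in the DN rats, 219.9, 234, 261 and 180.3 CPM in the SIN (20 mg/kg) rats and 413, 258, 270.0 and 249 CPM in the SIN (40 mg/kg) rats. DN rats spanned 2.61 times, more than the difference between any group means. The SIN (40 mg/kg) over DN log2 fold change of Slc7a7 was 0.51 (SE 0.29, adjusted p = 0.389 in edgeR) and that over SIN (20 mg/kg) 0.41 (SE 0.17, adjusted p = 0.961 in edgeR). Slc7a8 (ENSRNOG00000014311) was at 174 to 253 CPM in the normal rats, 118 to 217 CPM in the DN rats, 143 to 206 CPM in the SIN (20 mg/kg) rats and 147 to 293 CPM in the SIN (40 mg/kg) rats, with a DN over normal log2 fold change of -0.32 (SE 0.21, adjusted p = 0.309 in edgeR). In TPM, Slc3a2 stood 1.29 ± 0.177 times above Slc7a7 in the normal group, 1.60 ± 0.516 times in DN rats, 1.35 ± 0.164 times in SIN (20 mg/kg) rats and 1.13 ± 0.0995 times in SIN (40 mg/kg) rats (SD, n = 4). Its ratio to Slc7a8 was 3.45 ± 0.362, 4.33 ± 0.587, 3.84 ± 0.308 and 3.71 ± 0.300 in the same order. The DN group had the highest mean in both ratios and overlapped each other group.

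Slc36a2 (PAT2, ENSRNOG00000011892), a proton-driven carrier of proline and glycine, was at 0 in 5 of 16 rats. The estimated counts were 3, 0, 0 and 1 in the normal rats, 3, 0, 15 and 5 in the DN rats, 2, 3, 24 and 1 in the SIN (20 mg/kg) rats and 14, 0, 2 and 0 in the SIN (40 mg/kg) rats. A count of 0 allows a level of up to 3 counts, which is 0.119 to 0.153 CPM in these libraries and covers counting error only. The gene was not tested, and all 4 groups overlapped. The 3 rats with 14 or more counts, DN rat 3, SIN (20 mg/kg) rat 3 and SIN (40 mg/kg) rat 1, were also the 3 highest in the adipocyte genes Plin1, at 10.1, 9.09 and 13.1 CPM against at most 3.18 CPM elsewhere, and Cfd, at 19.3, 13.4 and 33.5 CPM against at most 7.87 CPM elsewhere. They were the 3 highest in Adipoq too, at 13.2, 18.7 and 19.9 CPM against at most 11.9 CPM. In Fabp4 they were at 22.2, 30.2 and 30.3 CPM, and SIN (40 mg/kg) rat 4, with 0 counts of Slc36a2, was above the first of them at 23.1 CPM. Ucp1, the marker of brown fat, was at 0 in DN rat 3 and SIN (20 mg/kg) rat 3 and highest in normal rat 1 at 0.516 CPM. The 5 adipocyte genes summed to 16.7 to 31.9 CPM in the normal group, 17.6 to 64.8 CPM in the DN group, 20.3 to 71.5 CPM at 20 mg/kg and 21.4 to 96.9 CPM at 40 mg/kg. PAT2 is also known from fat tissue, and the part of fat in these counts was not tested.

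**Figure D4:**
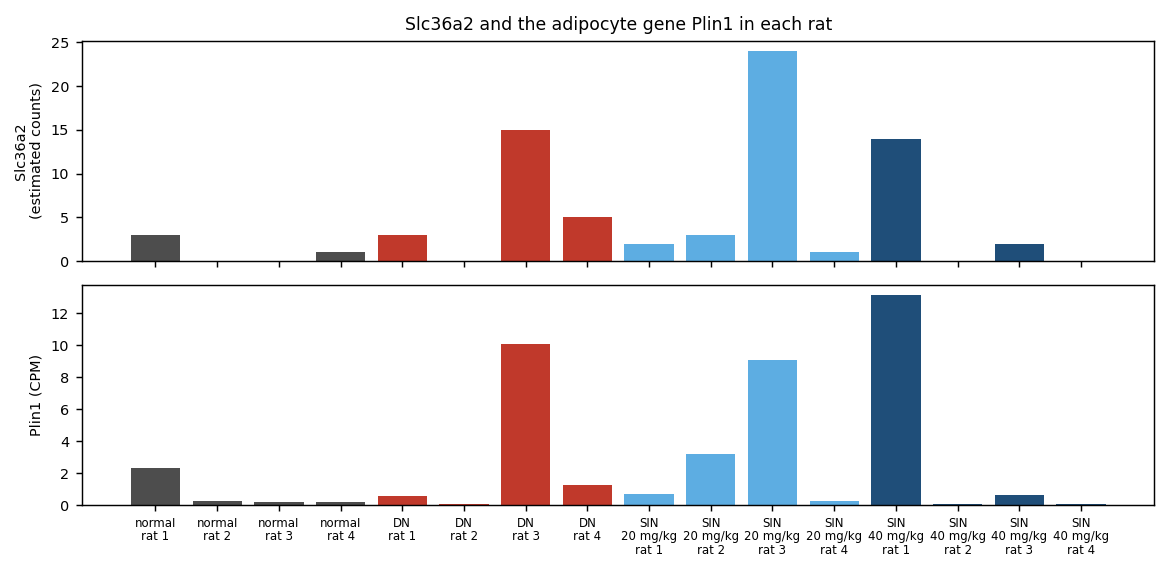
Estimated counts of Slc36a2 (upper bars) and CPM of the adipocyte gene Plin1 (lower bars) in each of the 16 rats, both axes starting at 0. The same 3 rats are highest in both, with 14 to 24 counts of Slc36a2 and 9.09 to 13.1 CPM of Plin1.

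Rats of the same group differed from each other in a coordinated way. After each group's mean was removed, Pearson's r of log2 CPM over the 16 rats was 0.70 to 0.93 in all 15 pairs of Slc7a9, Slc6a19, Slc6a20, Slc3a2, Slc7a7 and Slc7a8, highest for Slc3a2 with Slc7a8. Slc3a1 had r of 0.23 to 0.59 to the other 8 tested genes and 0.43 to its partner Slc7a9. Slc6a18 had r of -0.0059 to 0.51 to the others and 0.30 to its neighbour Slc6a19. With the group means left in, r was 0.40 to 0.88 in the same 15 pairs, 0.02 for Slc3a1 with Slc7a9 and -0.07 for Slc6a18 with Slc6a19. Again without the group means, r with the summed level of the 10 proximal tubule markers was 0.95 for Slc3a2, 0.95 for Slc7a9, and 0.84 to 0.87 for Slc7a7, Slc7a8, Slc6a20 and Slc6a19, but 0.43 for Slc3a1, 0.46 for Slc6a18 and 0.53 for Slc1a1. With the summed level of 4 thick ascending limb markers, r was -0.54 to -0.89 for the first 6 genes. These are descriptions over 16 rats that share 1 tissue preparation per rat, and whether the amount of cortex in a piece of tissue plays a part was not tested.

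SIN (40 mg/kg) rat 1, the highest rat of its group in 7 of the 9 tested genes (all but Slc3a1 and Slc6a18), was also the highest of its group in summed proximal tubule markers, at 20278 CPM. DN rat 1, the lowest of its group in all 9 tested genes, was also the lowest in these markers at 14023 CPM. Thick ascending limb markers summed to 3684 to 4809 CPM in the normal group, 2108 to 3772 CPM in the DN group, 3094 to 3241 CPM at 20 mg/kg and 2408 to 3359 CPM at 40 mg/kg. Every SIN rat thus lay below every normal rat in this sum, as in Slc3a1, while DN and normal rats overlapped. The sum is mostly Umod, at a mean of 3290 CPM in normal rats. Umod was at 1932 CPM in DN rats, 1943 CPM at 20 mg/kg and 1574 CPM at 40 mg/kg, and Cldn16 was also lower. Slc12a1 and Kcnj1 were higher by mean in both SIN groups. Slc12a1 was at 755 CPM in normal rats and 852 CPM at each dose. Kcnj1 was at 326 CPM in normal rats, 350 CPM at 20 mg/kg and 433 CPM at 40 mg/kg. Collecting duct markers summed to 543 to 1160 CPM in the normal group and 838 to 1859 CPM in the DN group. Their sum was 1013 to 1716 CPM at 20 mg/kg and 1118 to 1955 CPM at 40 mg/kg. By mean, Aqp2 was at 355 CPM in normal rats and 832 to 890 CPM in the diabetic groups, and Aqp3 at 170 against 293 to 342 CPM. Slc26a4 (96.4 against 50.1 to 60.9 CPM), Slc4a1 (159 against 137 to 144 CPM) and Atp6v1g3 (75.8 against 66.7 to 67.5 CPM) went the other way. The part of these differences in the transporters' values was not tested.

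The genes whose pattern over the 16 rats was most like that of a member, by Pearson's r of log2 CPM among 14445 genes, differed between members. For Slc3a1 they were Sh3tc2 (r = 0.94), the organic cation transporter Slc22a2 (0.93) and Il4r (0.92). For Slc6a19 they included Slc27a2 (0.89), a fatty acid transporter and activating enzyme, and Slc16a10 (0.89), the basolateral carrier of aromatic amino acids. For Slc7a7 they were the phosphate transporter Slc34a3 (0.93), Slc22a23 (0.92) and the glucose transporter Slc5a2 (0.90). Slc7a9 was closest to Naprt (0.93) and to Alpl (0.91), a brush border phosphatase, Slc6a20 to Cpn1 (0.92), Slc6a18 to Acot8 (0.89) and Slc1a1 to Atp6v1h (0.83). Myrf was among the 3 closest genes of both Slc7a8 (0.94) and Slc3a2 (0.93).

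Of 18 other amino acid and peptide transporters of the tubule, 16 were tested, and 4 were called between DN and normal, 1 higher and 3 lower, with 19.5% of all genes called. Their median log2 fold change was 0.06. The lower ones were Slc7a13, given above, the peptide transporter Slc15a2 at -0.56 (SE 0.11, adjusted p = 0.0117) and the neutral amino acid exchanger Slc1a4 at -0.62 (SE 0.19, adjusted p = 0.0486) in edgeR's test. Slc15a2 was at 182 to 230.4 CPM in the normal rats, 133 to 159 CPM in the DN rats, 95.8 to 153 CPM in the SIN (20 mg/kg) rats and 89.4 to 147 CPM in the SIN (40 mg/kg) rats, so all diabetic rats lay below all normal rats. The higher one was Slc38a3 (SNAT3), which brings glutamine into the cell for ammonia production. Slc38a3 was at 263, 262, 169 and 230.1 CPM in the normal rats, 429.7, 466, 293 and 336 CPM in the DN rats, 149, 255, 188 and 248 CPM in the SIN (20 mg/kg) rats and 236, 216, 207 and 183 CPM in the SIN (40 mg/kg) rats.

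The DN rats thus lay above all rats of the other 3 groups in Slc38a3. Its DN over normal log2 fold change was 0.72 (SE 0.18, adjusted p = 0.0259 in edgeR), and the SIN over DN values were -0.86 (SE 0.20, adjusted p = 0.270 in edgeR) at 20 mg/kg and -0.84 (SE 0.16, adjusted p = 0.175 in edgeR) at 40 mg/kg. DESeq2 gave adjusted p-values of 0.00757 and 0.000126 for the SIN over DN comparisons, and edgeR's quasi-likelihood test called 0 of the 16 genes there. Against the normal group, 4 of the 16 were called at each dose, 1 higher and 3 lower, with 6.36% of all genes called at 20 mg/kg and 5.97% at 40 mg/kg. The higher one was Slc15a1, the low-affinity peptide transporter of the early tubule, at 29.3 to 43.7 CPM in the normal rats, 27.6 to 66.0 CPM in the DN rats, 58.2 to 86.2 CPM in the SIN (20 mg/kg) rats and 55.9 to 105 CPM in the SIN (40 mg/kg) rats. Its log2 fold changes over normal were 1.00 (SE 0.16, adjusted p = 0.00622) and 1.08 (SE 0.21, adjusted p = 0.0155) in edgeR's test. The lower ones were Slc7a13 and Slc15a2 at both doses, Slc38a2 at 20 mg/kg (-0.91, SE 0.23, adjusted p = 0.0437 in edgeR) and Slc1a4 at 40 mg/kg (-0.90, SE 0.17, adjusted p = 0.0128 in edgeR).

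**Figure D5:**
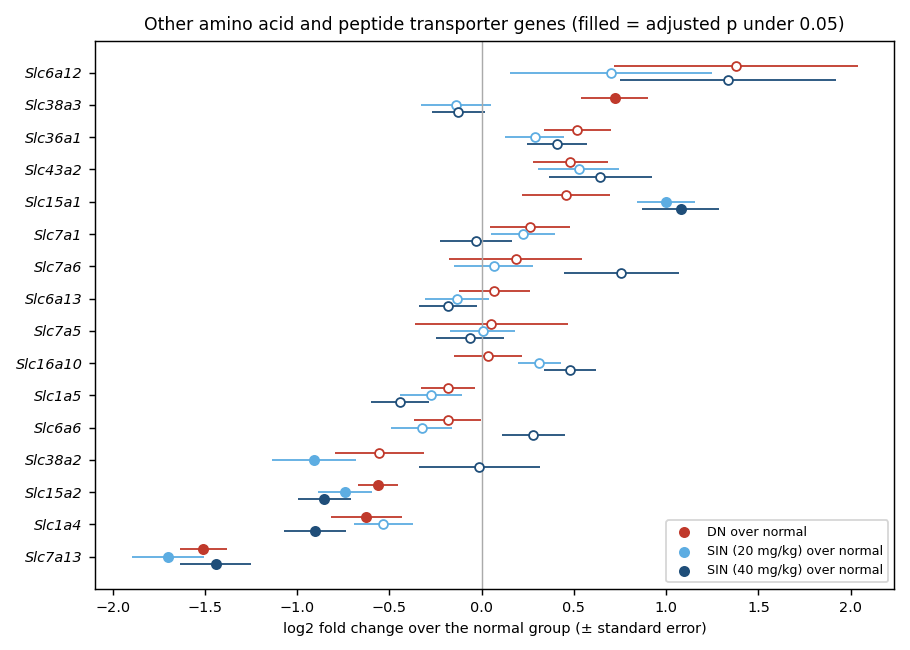
Log2 fold change over the normal group (horizontal axis) with its standard error for 16 other transporter genes (vertical axis) in the DN group and both SIN groups, which share the 4 normal rats. Filled points have an adjusted p under 0.05: Slc7a13 lies at -1.44 to -1.70 in all 3 groups, and Slc38a3 is filled in the DN group alone, at 0.72.

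Collectrin (Cltrn), an accessory protein that carries B0AT1 to the kidney's brush border, was at 774 to 1275 CPM in the normal rats, 482 to 1012 CPM in the DN rats, 603 to 924 CPM at 20 mg/kg and 661 to 815 CPM at 40 mg/kg. Its log2 fold changes over normal were -0.50, -0.48 and -0.52 with adjusted p-values of 0.142, 0.170 and 0.0653 in edgeR, none past the threshold.

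Of the 10 genes of the amino acid response under ATF4, 9 were tested between DN and normal and 1 was called, where 19.5% of all genes were. It was Psat1, an enzyme of serine synthesis, at -0.69 (SE 0.17, adjusted p = 0.0238 in edgeR). Psat1 was at 240.1 to 296 CPM in the normal rats, 125 to 212 CPM in the DN rats, 105 to 127 CPM at 20 mg/kg and 143 to 175 CPM at 40 mg/kg, and its log2 fold changes over normal were -1.23 and -0.82 in the SIN groups (adjusted p = 0.000263 and 0.00145 in edgeR). Chac1, an enzyme that breaks down glutathione, was called higher at 20 mg/kg over normal, at 0.689 to 1.35 CPM against 0.0939 to 0.398 CPM. In that comparison 6.36% of all genes were called. Chac1 was at 0.240 to 2.08 CPM in the DN rats and 0.419 to 0.984 CPM at 40 mg/kg. Its means of 0.907 and 0.728 CPM there were near the 0.926 CPM at 20 mg/kg, and all these levels are low. Of 6 proximal tubule transcription factors 0 were called between DN and normal in edgeR's test, with 0 at an unadjusted p under 0.05, against 19.5% and 36.9% of all genes. Hnf4a was at 603 to 1025 CPM over the 16 rats and was not called in any comparison. In the SIN over DN comparisons edgeR's quasi-likelihood test called 0 genes of either list, as it did 0% of all genes.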

How the data were processed

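The authors extracted total RNA from the renal tissue, enriched mRNA with oligo(dT), prepared libraries with a TruSeq kit and sequenced them on an Illumina NovaSeq instrument. Per the paper, reads were trimmed with SeqPrep and Sickle and aligned with TopHat to the rat genome Rnor_6.0 of Ensembl, and the submitters' processing notes also name Bowtie, RSEM and edgeR. The authors deposited estimated counts per gene in each rat, without normalization. Fractions occurred (74.3% of nonzero values were whole), so values were rounded to whole counts. Each column was matched to its rat through the library number that the rat's record gives, and 4 libraries that no record names were not used. TPM was computed from these counts and the transcript lengths in the table, without TMM.

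Each comparison was fitted on its 8 rats by edgeR 4.0.16 (quasi-likelihood, TMM, filterByExpr) in R 4.3.3, with Benjamini-Hochberg adjustment over all genes tested. Log2 CPM added a prior count of 2. The p-values set the difference between groups against the spread between rats, each counted as 1 replicate. The standard errors given with edgeR's log2 fold changes were worked out from the log2 fold change and the F value of the quasi-likelihood test. Steps were tested on simulated data. The alternatives were DESeq2 1.42.0, edgeR's exact test, RLE scaling, no filter, a stricter filter (at least 10 counts in all rats compared), one fit of all 16 rats, a required log2 fold change of at least 1, the replicate number as a block, a smaller prior count (0.25) and leaving out each rat.

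The 10 genes and the other gene lists were chosen with earlier results of these data known. Named were all 10 genes, from each list up to 5 genes with the smallest p among those called between DN and normal and any called between a SIN group and DN, the partner genes, and for each member the 3 genes with the highest r among those with a mean of at least 1 CPM. List genes called only against the normal group, genes that overlap a member and the adipocyte genes were named after their values were seen. Replicate numbers were checked for pairing: the deviations of same-numbered rats correlated at -0.239 to 0.245, with 2 of 24 pairs over 0.1, so they were not treated as pairs. Promoter sequences come from RefSeq. Some genes of the lists are not reported here.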

Additional observations from a re-analysis of the deposited data

Results flagged for a closer look

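Dixon's test at the 95% level was run on the CPM of each gene in each group of 4 rats, 40 groups in all, and 5 were flagged. Its chance rate of about 1 in 20 groups holds for normally distributed values. Slc36a2 was near 0 counts, and the groups are not independent, because several members varied together between rats. The number flagged therefore cannot be judged against that rate. In the SIN (40 mg/kg) group, rat 1 stood above the others in 3 genes. Slc7a7 was at 413 CPM in this rat against 249 to 270.0 CPM in the other rats, Slc1a1 at 284 CPM against 239 to 242 CPM, and Slc36a2 at 0.733 CPM against 0 to 0.0934 CPM. The same rat held the highest summed proximal tubule markers of its group, 20278 CPM, and the highest Plin1 of all 16 rats, 13.1 CPM. In the SIN (20 mg/kg) group, rat 3 stood out with Slc36a2 at 1.21 CPM against 0.0471 to 0.119 CPM, together with Plin1 at 9.09 CPM. Rat 1 of that group stood below the others with Slc6a20 at 127 CPM against 161 to 166 CPM, and had the lowest summed proximal tubule markers of its group, 13670 CPM. The part of these marker levels in the flagged values was not tested.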

How the results depend on the processing

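Of 864 alternative log2 fold changes of the tested members, 839 kept their side of the threshold and, where called, their direction. Of the rest, 19 lost a call and 6 gained one. 0 called values reversed, while 70 uncalled ones had the other sign. Some fits are counted more than once among these, as given below. Between DN and normal the number of members called was 0, and 1 with DESeq2 and 0 to 1 with each rat left out. Between SIN (40 mg/kg) and DN it was 0, and 2 with DESeq2. Between SIN (20 mg/kg) and normal it was 1, and 0 to 2 with each rat left out, 0 with a required log2 fold change of at least 1, and 2 without the rats over 5 CPM of Plin1, an alternative chosen after seeing the data, where Slc1a1 was also called at -0.46 (adjusted p = 0.0447 in edgeR). Between SIN (40 mg/kg) and normal the number called was 2, and 0 to 1 with each rat left out except for 2 without SIN (40 mg/kg) rat 4. It was 1 with all 16 rats in one fit, 1 without the rats over 5 CPM of Plin1, and 0 with a required log2 fold change of at least 1. Only SIN (40 mg/kg) rat 1 was over 5 CPM of Plin1 in these groups, so that fit is again the one without this rat. With the replicate number as a block, the number between SIN (20 mg/kg) and normal was 0, with Slc3a1 at an adjusted p of 0.0903 in edgeR. The numbers do not pair the rats, so this is a fit with a shared number only, and no other count of members called moved under the block. The causes of these changes were not tested.

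With 4 rats against 4, log2 fold changes of the members had standard errors of 0.09 to 0.30. Of 40 mean log2 CPM values, 2 moved with the prior count, both of Slc36a2, and 26 of 216 counts of list genes called moved by over 1.5 times.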

Other observations

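The taurine transporter Slc6a6, one of the 16 other transporters tested, was called by DESeq2 between the SIN doses, higher at 40 mg/kg by a log2 fold change of 0.60 (SE 0.11, adjusted p = 0.000232), and between SIN (40 mg/kg) and DN at 0.46 (SE 0.14, adjusted p = 0.0330 in DESeq2). edgeR's quasi-likelihood test called it in neither comparison (adjusted p = 0.797 and 0.187). It was singled out after its values were seen.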
